A study of Homo sapiens with 4 samples.

Results

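The 37 genes described here encode the machinery that takes up and activates fatty acids, carries them into mitochondria, oxidizes them there and in peroxisomes, and turns the product into ketone bodies. They were chosen by name, as a list of enzymes, carriers and regulators of the pathway, with earlier results of these data known. All 37 were found among the 18398 transcripts of each library, with 1 transcript for each gene. Huh1 and Huh7, which are established cell lines from human hepatocellular carcinoma, had been transfected with 15 nM of either the control NCsiRNA or CDCA8-1siRNA, an siRNA against CDCA8, and RNA was collected 48 h later. CDCA8 encodes borealin, a subunit of the chromosomal passenger complex that guides chromosomes through mitosis. Each line with each siRNA was sequenced in 1 library, 4 in all, prepared with a TruSeq kit, and the design compares the siRNAs within each line and the lines with each other. No condition was repeated and only 1 siRNA sequence against CDCA8 was used, so the spread between cultures of a condition was not measured.

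A fatty acid is first joined to coenzyme A by an acyl-CoA synthetase, and long chains then pass the inner mitochondrial membrane as carnitine esters. Inside, each round of beta-oxidation runs through a dehydrogenation, a hydration, a further dehydrogenation and a thiolysis that releases acetyl-CoA, while electron transfer flavoprotein passes the electrons of the first step to the respiratory chain. Hepatocytes are known for converting much of this acetyl-CoA to ketone bodies during fasting, and for shortening very long and branched chains in peroxisomes.

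Levels are given in RPKM (reads counted on a transcript, divided by its length in kilobases and by library depth), a scale on which genes of different length can be set side by side. The values correspond to between 12197606 and 13384836 reads per library. CDCA8 itself stood at 24.1 RPKM with NCsiRNA and 5.86 RPKM with CDCA8-1siRNA in Huh1, and at 51.5 and 7.36 RPKM in Huh7, so that 24.3% and 14.3% of the control level were left. The 12 hepatocyte-lineage markers, albumin and the transcription factor HNF4A among them, were all above 1 RPKM in the 4 libraries, with summed levels of 6136 and 4718 RPKM in Huh1 and of 3487 and 2455 RPKM in Huh7, NCsiRNA first. Of 16 markers of leukocytes, endothelium, stroma and bile duct cells, 15 were found, and their summed level was 125 and 127 RPKM in Huh1 against 298 and 360 RPKM in Huh7. In every library, 6 of the 15 stayed below 1 RPKM, among them the leukocyte markers PTPRC and CD14 and the endothelial markers VWF and KDR. The leukocyte markers CD68 and LYZ did reach 1 RPKM, CD68 with the higher level in Huh1 and LYZ in Huh7. The keratin KRT7 reached 84.4 RPKM in Huh1 with NCsiRNA and the collagen COL1A1 125 RPKM in Huh7 with CDCA8-1siRNA.

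The genes of fatty acid oxidation differed mainly between the lines, as genes did at large. Over all tested genes, limma called 28.7% higher in Huh1 and 42.5% higher in Huh7, against 6.39% for the siRNA (adjusted p under 0.05). With NCsiRNA, the summed level of the 37 genes was 2141 RPKM in Huh1 and 1234 RPKM in Huh7, and with CDCA8-1siRNA it was 2129 and 1211 RPKM. Abundant genes weigh most in such a sum, with ETFB alone at 344 RPKM in Huh1 and 63.9 RPKM in Huh7 with NCsiRNA. The sum over all transcripts was also higher in Huh1, at 464167 against 422953 RPKM with NCsiRNA. ACSL5, FABP1, ETFB, BDH1, SLC27A5, ACADVL and CPT1A stood well above Huh7 in both Huh1 libraries, whereas CPT2, HADH and PPARGC1A stood higher in both Huh7 libraries. After CDCA8-1siRNA, none of the 36 genes tested passed across both lines (limma), against 6.39% of all tested genes. At an unadjusted p under 0.05 there were 7, or 19.4%, against 22.8% of all tested genes. The widest shifts, of FABP1, CPT1A, SLC25A20, ACSL5, PPARGC1A and PDK4, were seen in Huh7.

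Of the 37 genes, 36 reached 1 RPKM in at least 1 library and were tested, and 31 reached it in all 4. ACADL, the long-chain acyl-CoA dehydrogenase, was the exception, with 1, 0, 1 and 2 reads in Huh1 with NCsiRNA, Huh1 with CDCA8-1siRNA, Huh7 with NCsiRNA and Huh7 with CDCA8-1siRNA. These reads are rounded, and the value of 0.0165 RPKM in Huh7 with NCsiRNA amounts to a part of a read. In Huh1 with CDCA8-1siRNA, 0 reads allow a level of up to 0.0894 RPKM (the level of 3 reads), so its expression was not detectable there at this depth. In the other libraries it was near the floor. SLC27A2 and SLC27A5 reached 1 RPKM only in Huh1 and PPARGC1A only in Huh7, so the filter itself kept each of them through the line in which it was high, and their difference between the lines is given as a description.

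The first comparison set the lines side by side. The limma model was fitted to log2(RPKM + 1) of all 12148 genes at 1 RPKM or more in any library, with cell line and siRNA as factors, with Benjamini-Hochberg adjustment of the p-values over all of them. At an adjusted p under 0.05, 24 of the 36 tested members were higher in Huh1, or 66.7%, where 28.7% of all tested genes were. In the other direction, 8 were higher in Huh7, or 22.2%, against 42.5% of all tested genes. These counts include SLC27A2, SLC27A5 and PPARGC1A, which the filter kept through 1 line. Over the 33 members that reached 1 RPKM in both lines, the same fit had 22 higher in Huh1 (66.7%, against 28.6% of such genes) and 7 higher in Huh7 (21.2%, against 39.0%). The median difference, Huh7 minus Huh1, was -0.67 on the log2 scale over the members, with 27 below 0 and 9 above, and 0.14 over all genes tested. Both Huh1 libraries exceeded both Huh7 libraries for 27 of the 36 (75.0%, against 33.1% of all genes), and the reverse held for 8 (22.2%, against 47.4%). The 27 include SLC27A2 and SLC27A5, and the 8 include PPARGC1A. Between the NCsiRNA libraries alone, 11 of 35 members were at least 2-fold higher in Huh1 (31.4%, against 10.2% of all genes) and 1, CPT2, at least 2-fold higher in Huh7 (2.86%, against 17.0%). The 11 include SLC27A5 and PDK4, which with NCsiRNA reached 1 RPKM in Huh1 alone, so this share rests in part on the filter. The libraries of a line differ in siRNA and serve as its only repeat, so these p-values rest on 1 residual degree of freedom per gene and on the spread shared across genes. In bulk RNA, fewer cells with a transcript and less of it per cell cannot be told apart.

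**Figure D1:**
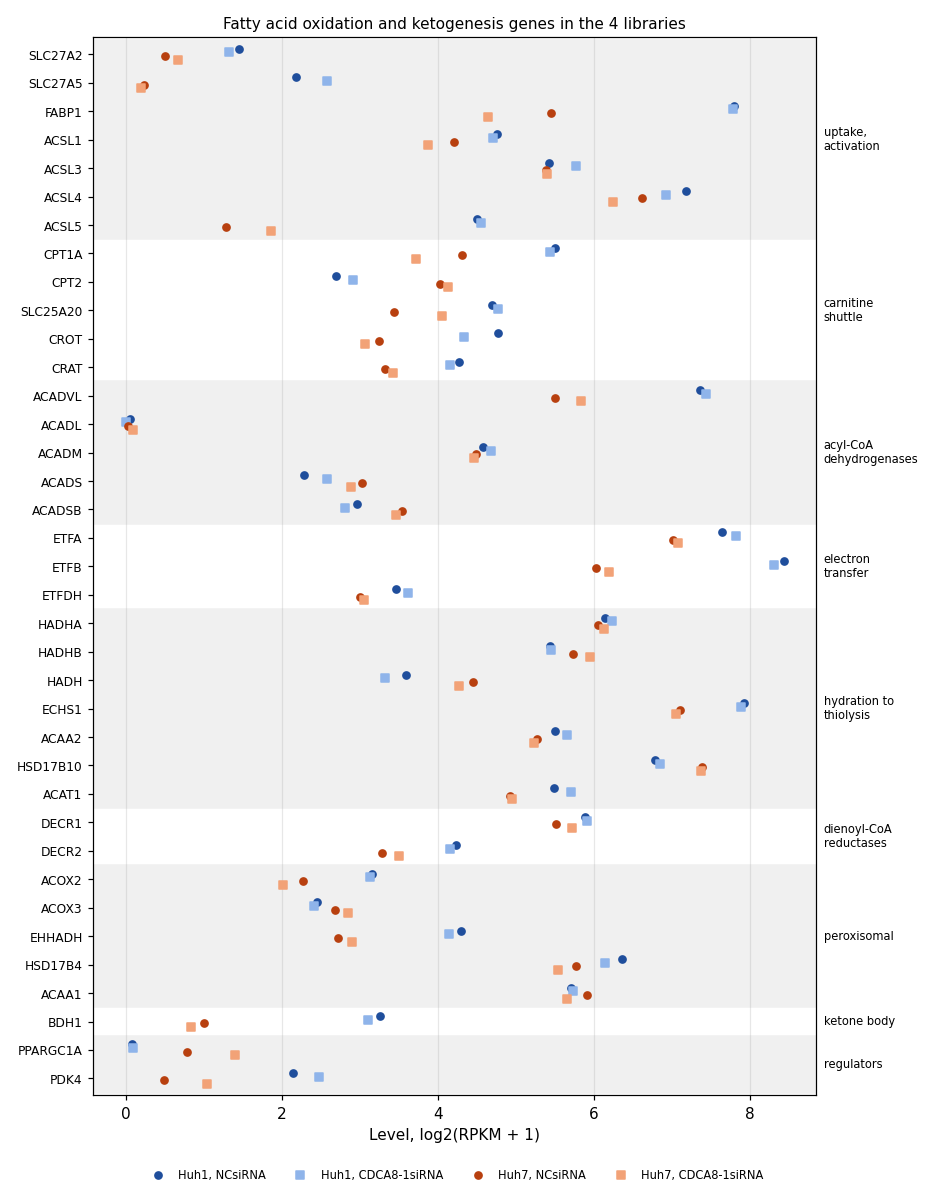
Level of each of the 37 genes in the 4 libraries, as log2(RPKM + 1), with 1 point per library, blue for Huh1 and red for Huh7, circles for NCsiRNA and squares for CDCA8-1siRNA, and bands that group the genes by role. The blue points lie to the right of the red ones for 27 genes and to the left for 8, while circle and square of the same line lie close together for most genes.

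The 7 genes of uptake, binding and activation were higher in Huh1 throughout. Their summed level was 460 and 446 RPKM in Huh1 against 200.2 and 157 RPKM in Huh7 (here and below, NCsiRNA first and CDCA8-1siRNA second in each line). For all 7, both Huh1 libraries lay above both Huh7 libraries, as they did for 33.1% of all tested genes. FABP1, ACSL1, ACSL4 and ACSL5 passed the test and ACSL3 did not. SLC27A2 and SLC27A5, kept by the filter through Huh1 alone, are given as a description. FABP1 (NM_001443), the liver fatty acid-binding protein that carries fatty acids through the cytosol, stood at 221 and 219 RPKM in Huh1 and at 42.7 and 23.9 RPKM in Huh7. It was the most abundant gene of the group in Huh1, and its Huh7 levels were both far below. On the log2(RPKM + 1) scale it was 6.70-fold higher in Huh1 (difference -2.74 ± 0.16 SE, limma, adjusted p = 1.03e-06). ACSL5 (NM_016234), an acyl-CoA synthetase, stood at 21.6 and 22.5 RPKM in Huh1 and at 1.43 and 2.63 RPKM in Huh7. The lines did not overlap, and the gene had the greatest difference among the 36 tested members, 7.75-fold on that scale (-2.96 ± 0.14 SE, limma, adjusted p = 3.35e-07).

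The promoter of FABP1 is shown because the gene combines a large gap between the lines with the lowest CDCA8-1siRNA to NCsiRNA ratio in Huh7. The window runs from 250 bases before to 50 bases after the RefSeq transcription start, chr2:88128013-88128312 on the minus strand of GRCh38.p14, and is written 5′ to 3′.
FABP1 promoter: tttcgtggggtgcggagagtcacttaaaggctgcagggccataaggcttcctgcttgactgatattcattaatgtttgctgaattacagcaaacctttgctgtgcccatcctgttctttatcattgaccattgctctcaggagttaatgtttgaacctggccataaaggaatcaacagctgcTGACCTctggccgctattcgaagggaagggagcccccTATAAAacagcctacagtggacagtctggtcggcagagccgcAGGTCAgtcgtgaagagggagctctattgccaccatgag
Capitals mark matches to AGGTCA, the half-site that nuclear receptors are known to bind, on either strand, and to TATAAA, the TATA box. Both motifs are present, AGGTCA in 2 places and TATAAA in 1, without overlap. AGGTCA on either strand was found in 13.8% of the 35116 windows in the table of all genes and, among 43 windows of the 30 members with an entry, in 2, those of FABP1 and ACSL5. TATAAA was found in 11.5% of all windows and in 3 member windows, those of FABP1, ACADVL and ACSL1. A match is only a run of letters, and no binding was measured.

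The other synthetases were closer between the lines. ACSL4, which prefers arachidonic acid, stood at 144 and 120 RPKM in Huh1 and at 97.4 and 74.5 RPKM in Huh7. ACSL1, a major synthetase of liver, stood at 25.9 and 24.9 RPKM in Huh1 and at 17.4 and 13.6 RPKM in Huh7. Both were higher in Huh1, 1.54-fold and 1.61-fold (limma, adjusted p = 0.00016 and 0.000453). ACSL3, a synthetase found at lipid droplets, stood at 41.8 and 53.6 RPKM in Huh1 and at 40.8 and 41.3 RPKM in Huh7. Its NCsiRNA levels were almost equal, and it did not pass the test (difference -0.20, limma, adjusted p = 0.116). The transporters SLC27A5, which also activates bile acids, and SLC27A2, a very long-chain synthetase, were low. SLC27A5 stood at 3.51 and 4.94 RPKM in Huh1 and at 0.173 and 0.138 RPKM in Huh7, the latter from 5 and 4 reads. SLC27A2 stood at 1.73 and 1.49 RPKM in Huh1 and at 0.411 and 0.58 RPKM in Huh7. Both lay higher in Huh1 on the log2(RPKM + 1) scale, by 4.48-fold and 1.75-fold, a scale that understates the change of low genes. All fold differences between the lines from limma, here and below, are on this scale.

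Of the 5 genes of the carnitine shuttle, 4 were higher in Huh1 and 1 in Huh7. For the counts by role here and below, the shares over all tested genes were 28.7% higher in Huh1 and 42.5% higher in Huh7. CPT1A (NM_001876), which makes the carnitine ester at the outer membrane and is the controlled step of the pathway, stood at 44.3 and 42.1 RPKM in Huh1 and at 18.8 and 12.1 RPKM in Huh7. CPT2 (NM_000098), which returns the acyl group to coenzyme A inside, stood at 5.43 and 6.53 RPKM in Huh1 and at 15.3 and 16.4 RPKM in Huh7. The enzymes at either end of the shuttle thus differed in opposite directions, CPT1A 2.75-fold higher in Huh1 (-1.46 ± 0.13 SE) and CPT2 2.42-fold higher in Huh7 (1.27 ± 0.11 SE), with limma adjusted p-values of 1.38e-05 and 1.03e-05. SLC25A20, the carrier that exchanges carnitine and its esters across the inner membrane, stood at 24.8 and 26.4 RPKM in Huh1 and at 9.84 and 15.5 RPKM in Huh7. The lines did not overlap, and it was 1.99-fold higher in Huh1 (limma, adjusted p = 0.000177). CROT, the peroxisomal carnitine octanoyltransferase, stood at 26.3 and 19.1 RPKM in Huh1 and at 8.46 and 7.33 RPKM in Huh7. CRAT, the carnitine acetyltransferase, stood at 18.3 and 16.7 RPKM in Huh1 and at 8.98 and 9.7 RPKM in Huh7. Both were higher in Huh1, 2.64-fold and 1.79-fold (limma, adjusted p = 6.79e-06 and 0.000144).

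The acyl-CoA dehydrogenases, which carry out the first oxidation on chains of different length, were divided. ACADVL (NM_000018), for very long chains, stood at 163 and 172 RPKM in Huh1 and at 44.1 and 56.0 RPKM in Huh7. It was the most abundant acyl-CoA dehydrogenase in every library and was 3.32-fold higher in Huh1 (-1.73 ± 0.09 SE, limma, adjusted p = 6.47e-07). ACADM, for medium chains, stood at 22.8 and 24.6 RPKM in Huh1 and at 21.4 and 21.0 RPKM in Huh7. The lines differed by less than 0.25 on the log2 scale and the gene did not pass the test (-0.15, limma, adjusted p = 0.193). ACADS, for short chains, stood at 3.84 and 4.98 RPKM in Huh1 and at 7.14 and 6.38 RPKM in Huh7. ACADSB, for short branched chains from isoleucine, stood at 6.79 and 5.98 RPKM in Huh1 and at 10.6 and 9.98 RPKM in Huh7. Both were higher in Huh7, 1.44-fold and 1.53-fold (limma, adjusted p = 0.00842 and 0.000991), although the call of ACADS was lost without a filter on low values.

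All 3 genes that receive the electrons of these dehydrogenases were higher in Huh1, but to unequal extents. ETFB (NM_001985), the beta subunit of electron transfer flavoprotein, stood at 344 and 315 RPKM in Huh1 and at 63.9 and 71.9 RPKM in Huh7. ETFA, its alpha partner, stood at 199 and 226 RPKM in Huh1 and at 128 and 134 RPKM in Huh7. In both Huh1 libraries the ETFB level was above that of ETFA, and in both Huh7 libraries it was below. ETFB was 4.80-fold higher in Huh1 (-2.26 ± 0.09 SE, limma, adjusted p = 1.2e-07) and ETFA 1.62-fold (-0.69 ± 0.08 SE, adjusted p = 5.86e-05). ETFDH, the dehydrogenase that hands the electrons to ubiquinone, stood at 9.99 and 11.2 RPKM in Huh1 and at 7.02 and 7.29 RPKM in Huh7. It was 1.42-fold higher in Huh1 (limma, adjusted p = 0.00278) and far less abundant than either subunit in every library.

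In summed level, the steps from hydration to thiolysis were the most evenly matched, at 561 and 575 RPKM in Huh1 against 508 and 510 RPKM in Huh7. Of the 7 genes, 3 were higher in Huh1, 3 were higher in Huh7 and 1 did not pass. Over all tested genes, 28.7% were higher in Huh1 and 42.5% higher in Huh7. HADHA, the alpha subunit of the trifunctional protein that handles long chains, stood at 69.4 and 73.9 RPKM in Huh1 and at 65.0 and 69.0 RPKM in Huh7. HADHB, its beta subunit, stood at 42.3 and 42.7 RPKM in Huh1 and at 52.0 and 60.7 RPKM in Huh7. HADHA did not pass the test (-0.10, limma, adjusted p = 0.326), whereas HADHB was 1.31-fold higher in Huh7 (0.39 ± 0.09 SE, adjusted p = 0.00492). The 2 genes lie head to head on chromosome 2, and their promoter windows, chr2:26244583-26244882 on the minus strand for HADHA and chr2:26244689-26244988 on the plus strand for HADHB (GRCh38.p14, RefSeq), share 194 bases. The window of HADHB is shown because it holds this shared stretch of a pair of subunits that differed in the result of the test.
HADHB promoter: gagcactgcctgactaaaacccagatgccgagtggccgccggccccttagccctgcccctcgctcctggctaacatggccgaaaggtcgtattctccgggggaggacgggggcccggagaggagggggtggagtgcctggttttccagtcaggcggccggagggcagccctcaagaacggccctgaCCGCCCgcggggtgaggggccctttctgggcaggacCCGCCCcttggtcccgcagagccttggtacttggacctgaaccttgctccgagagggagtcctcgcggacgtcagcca
Capitals mark matches to GGGCGG, the GC box, on either strand, of which the HADHB window holds 2 and the HADHA window 1. The HADHA match lies in the shared stretch and is the same site as the first of the 2 marked here, so it counts in both windows. GGGCGG was found in 45.0% of all windows and in 28 of the 43 member windows, belonging to 24 of the 30 members with an entry. The HADHB window holds neither AGGTCA nor TATAAA.

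HADH, the dehydrogenase of the third step for medium and short chains, stood at 11.1 and 8.95 RPKM in Huh1 and at 20.9 and 18.2 RPKM in Huh7. HSD17B10, which takes the same step in isoleucine breakdown, stood at 109 and 114 RPKM in Huh1 and at 166 and 165 RPKM in Huh7. These dehydrogenases were higher in Huh7, 1.87-fold and 1.48-fold (limma, adjusted p = 6.1e-05 and 0.000202). ECHS1, the short-chain hydratase, stood at 241 and 236 RPKM in Huh1 and at 137 and 131 RPKM in Huh7. ACAA2, the thiolase of the last step, stood at 44.3 and 49.2 RPKM in Huh1 and at 37.6 and 36.4 RPKM in Huh7. ACAT1, the acetoacetyl-CoA thiolase that also takes part in making ketone bodies, stood at 44.0 and 50.9 RPKM in Huh1 and at 29.4 and 29.8 RPKM in Huh7. All 3 were higher in Huh1, by 1.77-fold, 1.26-fold and 1.58-fold (limma, adjusted p = 1.54e-05, 0.0128 and 0.00028). The dienoyl-CoA reductases, which allow unsaturated chains to be oxidized, were also higher there. DECR1, the mitochondrial form, stood at 57.9 and 59.1 RPKM in Huh1 and at 44.6 and 51.8 RPKM in Huh7, and DECR2, the peroxisomal form, at 17.7 and 16.8 RPKM against 8.75 and 10.3 RPKM. The gap was narrower for DECR1, 1.21-fold, than for DECR2, 1.74-fold (limma, adjusted p = 0.0234 and 0.000247), and whether the 2 gaps differ was not tested. The call of DECR1 was lost in a fit without the mean-variance trend and in one without the siRNA factor.

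**Figure D2:**
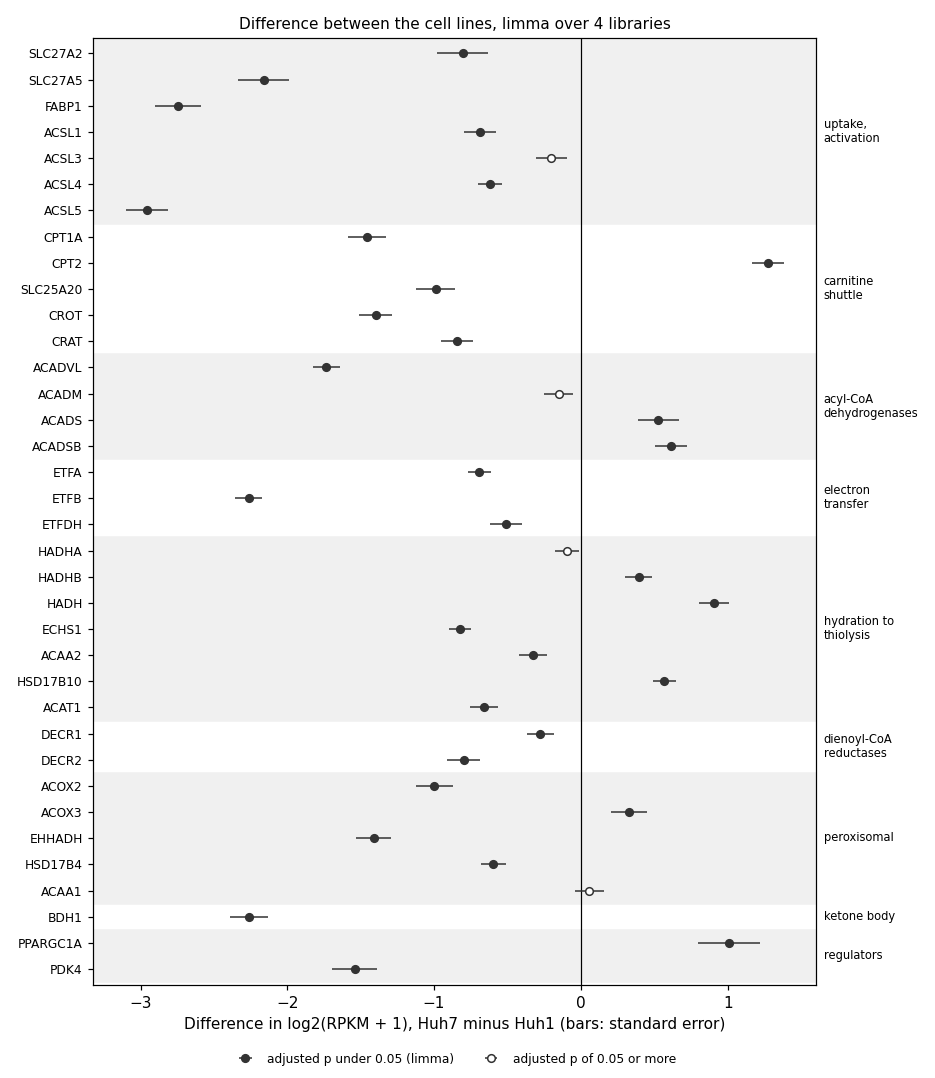
Difference in log2(RPKM + 1) between the lines, Huh7 minus Huh1, for the 36 tested genes, with standard errors from limma over the 4 libraries, filled points for an adjusted p under 0.05 and open points for the rest. The points reach from -2.96 for ACSL5 to 1.27 for CPT2, and the 4 open points are ACSL3, ACADM, HADHA and ACAA1.

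In peroxisomes, where oxidation begins with an oxidase in place of a dehydrogenase, 3 of 5 genes were higher in Huh1 (28.7% of all tested genes). EHHADH, the bifunctional enzyme, stood at 18.5 and 16.6 RPKM in Huh1 and at 5.54 and 6.43 RPKM in Huh7. HSD17B4, the other bifunctional enzyme, stood at 81.0 and 69.6 RPKM in Huh1 and at 53.3 and 45.5 RPKM in Huh7. Both were higher in Huh1, 2.66-fold and 1.51-fold (limma, adjusted p = 1.02e-05 and 0.000246). ACOX2, the oxidase for branched chains and bile acid intermediates, stood at 7.86 and 7.71 RPKM in Huh1 and at 3.80 and 3.04 RPKM in Huh7. ACOX3, another branched-chain oxidase, stood at 4.45 and 4.31 RPKM in Huh1 and at 5.38 and 6.16 RPKM in Huh7. ACOX2 was 2.00-fold higher in Huh1 and ACOX3 1.26-fold higher in Huh7 (limma, adjusted p = 0.000109 and 0.0389), but the call of ACOX3 was lost under 4 alternatives. ACAA1, the peroxisomal thiolase, stood at 51.1 and 52.2 RPKM in Huh1 and at 59.0 and 49.1 RPKM in Huh7. Here the lines overlapped and the test was not passed (0.06, limma, adjusted p = 0.613).

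BDH1 (NM_004051), which interconverts the ketone bodies acetoacetate and 3-hydroxybutyrate, stood at 8.56 and 7.55 RPKM in Huh1 and at 1.00 and 0.78 RPKM in Huh7. On the log2(RPKM + 1) scale it was 4.79-fold higher in Huh1 (-2.26 ± 0.13 SE, limma, adjusted p = 1.04e-06). The RPKM ratio of Huh1 to Huh7 was 8.55 with NCsiRNA and 9.69 with CDCA8-1siRNA. Of 5 further genes of ketone body use and transport, 2 were higher in Huh1, 2 were higher in Huh7 and BDH2, a cytosolic dehydrogenase, did not pass. The shares over all tested genes were 28.7% higher in Huh1 and 42.5% higher in Huh7. OXCT1, the transferase with which other tissues use ketone bodies and which normal hepatocytes are known to lack, stood at 0.231 and 0.213 RPKM in Huh1 and at 12.1 RPKM in both Huh7 libraries. The lines did not overlap, and OXCT1 lay 10.7-fold and its relative OXCT2 1.78-fold higher in Huh7 on the log2(RPKM + 1) scale. Both reached 1 RPKM only in Huh7, so the filter kept them through the line where they were high. The monocarboxylate transporter SLC16A1 and the cytosolic synthetase AACS were higher in Huh1 (1.35-fold for SLC16A1), with limma adjusted p-values of 0.00215 and 0.00438.

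Of the 2 regulators in the list, PDK4, the kinase that blocks pyruvate dehydrogenase and so spares glucose when fat is burned, stood at 3.41 and 4.53 RPKM in Huh1 and at 0.399 and 1.06 RPKM in Huh7. PPARGC1A, the coactivator PGC-1α, stood at 0.0485 and 0.066 RPKM in Huh1 and at 0.714 and 1.64 RPKM in Huh7, from 4, 6, 55 and 127 reads. On the log2(RPKM + 1) scale PDK4 was 2.91-fold higher in Huh1 (limma, adjusted p = 2.65e-05). Its RPKM ratio of Huh1 to Huh7 was 8.56 with NCsiRNA and 4.28 with CDCA8-1siRNA. PPARGC1A, kept by the filter through Huh7 alone, lay 2.01-fold higher there on the log2(RPKM + 1) scale. Among 26 tested genes of a further list of regulators and responsive genes, 12 were higher in Huh1 and 9 in Huh7, with a median difference of -0.02. Over all tested genes, 28.7% were higher in Huh1 and 42.5% in Huh7. PPARA, the receptor that switches on hepatic fatty acid oxidation, stood at 9.35 and 10.2 RPKM in Huh1 and at 2.96 and 2.97 RPKM in Huh7. ESRRA, a partner of PGC-1α, stood at 24.7 and 24.3 RPKM against 8.64 and 8.70 RPKM, and CREB3L3, a fasting factor of liver, at 62.8 and 60.3 RPKM against 14.5 and 16.8 RPKM. These 3 factors were higher in Huh1 by 2.72-fold, 2.64-fold and 3.76-fold (limma, adjusted p = 8.11e-06, 3.78e-06 and 6.35e-07). CIDEC, a lipid droplet protein, stood at 14.5 and 18.6 RPKM in Huh1 and at 0.704 and 0.764 RPKM in Huh7, and G0S2, an inhibitor of lipolysis, stood at 21.4 and 12.6 RPKM in Huh1 and at 0 and 0.169 RPKM in Huh7. The other genes called higher in Huh1 were RXRA, PPARGC1B, NCOA1, MED1, HNF4A, PLIN5 and PDK2. Higher in Huh7 at 2-fold or more were FOXA2, ANGPTL4, PLIN2, PDK1, PDK3 and TXNIP, from 2.35-fold for ANGPTL4 to 4.56-fold for TXNIP, and below 2-fold PPARD, SIRT1 and SIRT3. Among these genes, CIDEC, G0S2 and PLIN5 reached 1 RPKM only in Huh1 and PDK3 only in Huh7.

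Outside the 37 genes, the calls fell on both sides. For the counts that follow, the shares over all tested genes were 28.7% higher in Huh1 and 42.5% higher in Huh7. Of 24 tested transcripts of further, mainly mitochondrial and peroxisomal proteins, 8 were higher in Huh1, 8 were higher in Huh7 and 8 did not pass. Their median difference was -0.07. ECI1, an isomerase for unsaturated chains, stood at 42.9 and 48.2 RPKM in Huh1 and at 11.2 and 19.1 RPKM in Huh7, 2.97-fold higher in Huh1 (limma, adjusted p = 1.03e-05). The remaining calls toward Huh1 were ACAD8, ACAD11, ECI2, ECHDC1, HACL1, ABCD3 and IVD, and those toward Huh7 were ACAD9, ACAD10, ECHDC2, PHYH, PEX5, GCDH and both transcripts of the sterol carrier SCP2. Beside the carnitine shuttle, CPT1B, the muscle form of CPT1, stood at 0.413 and 0.602 RPKM in Huh1 and at 2.63 and 4.73 RPKM in Huh7. It was 3.03-fold higher in Huh7 on the log2(RPKM + 1) scale, with RPKM ratios of 6.38 with NCsiRNA and 7.86 with CDCA8-1siRNA. Also tested there were SLC22A5, ACACA and ACACB, higher in Huh1, and MLYCD, which did not pass. Of 10 tested genes of further uptake and binding proteins, 4 were higher in Huh1 and 5 in Huh7. CD36, a fatty acid receptor at the cell surface, stood at 48.1 and 50.6 RPKM in Huh1 and at 0.552 and 1.10 RPKM in Huh7. On the log2(RPKM + 1) scale it was 27.9-fold higher in Huh1 (-4.80, limma, adjusted p = 1.03e-08). The RPKM ratio of Huh1 to Huh7 was 87.2 with NCsiRNA and 46.2 with CDCA8-1siRNA. FABP3, the heart form of the binding protein, stood at 0.477 and 0.352 RPKM in Huh1 and at 8.45 and 4.83 RPKM in Huh7, the reverse of FABP1. It was 5.25-fold higher in Huh7 on the log2(RPKM + 1) scale, with RPKM ratios of 17.7 with NCsiRNA and 13.7 with CDCA8-1siRNA. FABP5 was also higher in Huh7, 2.12-fold, although reads from its pseudogenes may be shared with it. SLC27A4, FABP6 and ACSS1 were higher in Huh1 by 2.15-fold to 4.41-fold, and SLC27A3, ACSM3 and ACSS2 higher in Huh7 by less than 2-fold. CPT1B and FABP3 reached 1 RPKM only in Huh7, and FABP6 and ACSS1 only in Huh1, so the filter kept each through the line where it was high.

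**Figure D3:**
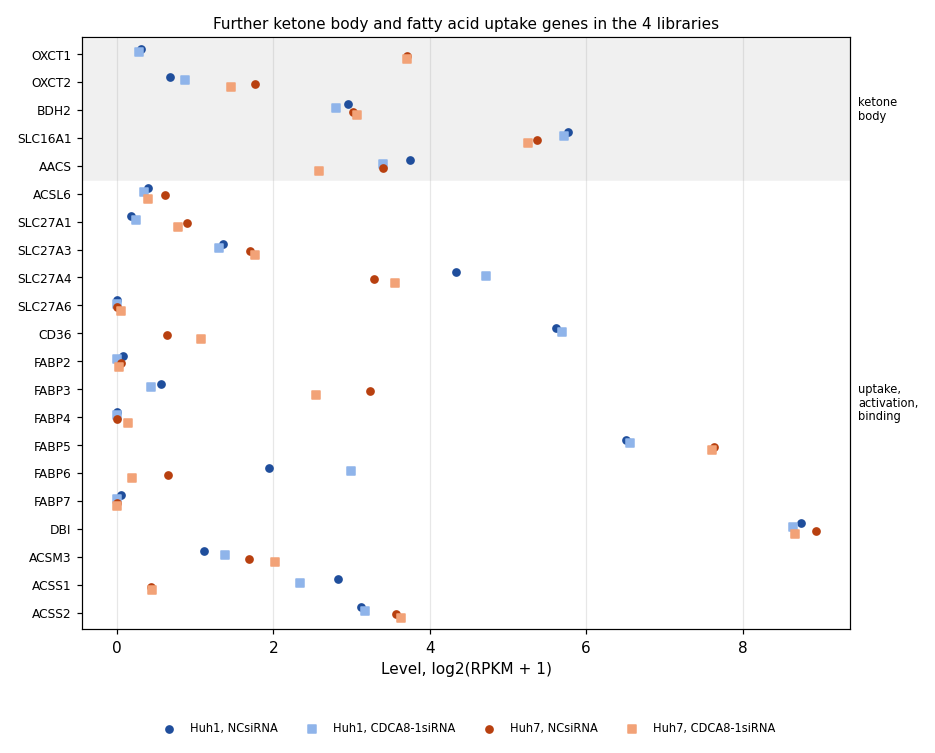
Level of 5 further ketone body genes and the 16 further uptake, activation and binding genes in the 4 libraries, as log2(RPKM + 1), with 1 point per library, blue for Huh1 and red for Huh7, circles for NCsiRNA and squares for CDCA8-1siRNA. CD36 lies far to the right in Huh1, and OXCT1 and FABP3 far to the right in Huh7.

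The comparison of the siRNAs asked whether loss of CDCA8 moves the pathway. Across both lines, 0 of the 36 tested members passed an adjusted p under 0.05 (limma, cell line as a factor), where 6.39% of all 12148 genes did. At an unadjusted p under 0.05 there were 7 members, or 19.4%, against 22.8% of all genes, namely FABP1, ACSL4, CPT1A, SLC25A20, CROT, HSD17B4 and PDK4. Under other settings between 0 and 2 members were called, ACSL4 under 3 of them and FABP1 under 1. The median difference, CDCA8-1siRNA minus NCsiRNA, was 0.04 on the log2 scale over the members, 23 above 0 and 13 below, and 0.03 over all genes, and 28 of the 36 lay within 0.25 of 0. No member reached 2-fold on the log2(RPKM + 1) scale in Huh1, among 35 with 1 RPKM in either library, where 0.494% of genes did, nor in Huh7, among 34, where 1.57% did. The lines are the only repeat of this comparison, so a change present in 1 line widens the error of the fit.

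ACSL4 came nearest to a call. Its CDCA8-1siRNA to NCsiRNA ratio was 0.83 in Huh1 (95% counting interval 0.806 to 0.856) and 0.765 in Huh7 (0.736 to 0.795), and limma gave -0.32 ± 0.08 SE with an adjusted p of 0.0539. Such an interval comes from the number of reads alone and covers counting error only, not variation between cultures. CROT stood at a ratio of 0.725 in Huh1 (0.662 to 0.794) and of 0.867 in Huh7 (0.738 to 1.02), and HSD17B4 at 0.859 and 0.854. Both of these peroxisomal enzymes were lower with CDCA8-1siRNA in each line, with limma adjusted p-values of 0.138 and 0.168. PDK4 pointed the other way, at a ratio of 1.33 in Huh1 (1.08 to 1.63) and of 2.65 in Huh7 (1.51 to 4.84), where it rests on 18 and 48 reads. Its fitted difference was 0.44 ± 0.15 SE (limma, adjusted p = 0.129).

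Several members lay further from their NCsiRNA level in Huh7 than in Huh1, each seen in 1 library against 1. The same held over all genes, whose differences had an SD of 0.35 on the log2 scale in Huh7 and of 0.26 in Huh1. FABP1 had a ratio of 0.989 in Huh1 (0.923 to 1.06) and of 0.56 in Huh7 (0.46 to 0.68). CPT1A had a ratio of 0.95 in Huh1 (0.903 to 1.00) and of 0.644 in Huh7 (0.588 to 0.706). Both genes were thus near the control level in Huh1 and below it in Huh7, beyond counting error. On the log2 ratio scale, the Huh7 response minus the Huh1 response was -0.82 for FABP1 (counting interval -1.11 to -0.53) and -0.56 for CPT1A (-0.71 to -0.41). SLC25A20 had a ratio of 1.06 in Huh1 (0.951 to 1.19) and of 1.58 in Huh7 (1.33 to 1.87). ACSL5 had a ratio of 1.04 in Huh1 (0.952 to 1.14) and of 1.84 in Huh7 (1.33 to 2.59), from 58 and 108 reads. Here the Huh7 library with CDCA8-1siRNA was the higher one, and the responses differed by 0.57 for SLC25A20 (0.28 to 0.86) and by 0.82 for ACSL5 (0.34 to 1.30). PPARGC1A had a ratio of 2.30 in Huh7 (1.66 to 3.21), while its 4 and 6 reads in Huh1 leave that ratio between 0.361 and 7.33. Without a repeat of any condition, a difference between the responses of the lines could not be tested against the spread of cultures.

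**Figure D4:**
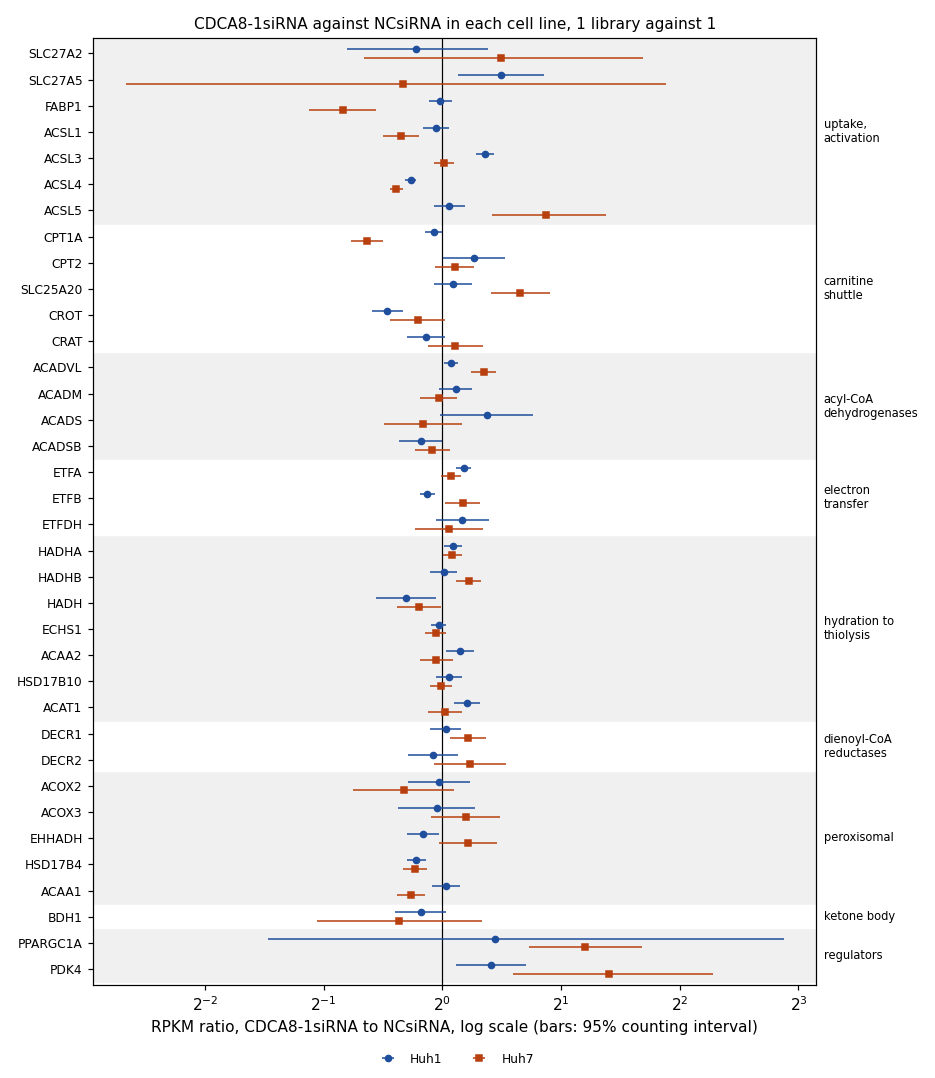
Ratio of the RPKM with CDCA8-1siRNA to that with NCsiRNA for 36 genes on a log2-spaced axis, blue circles for Huh1 and red squares for Huh7, each 1 library against 1, with 95% counting intervals from the reads. Most points lie near 1, and in Huh7 FABP1 lies at 0.56, CPT1A at 0.644, SLC25A20 at 1.58, ACSL5 at 1.84, PPARGC1A at 2.30 and PDK4 at 2.65.

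Among the members, the mitochondrial enzymes after the carnitine shuttle stayed close to their control level, though some intervals were clear of 1. Outside the members, the isomerase ECI1 had a ratio of 1.12 in Huh1 (1.04 to 1.21) and of 1.70 in Huh7 (1.47 to 1.97). ACADVL had a ratio of 1.05 in Huh1 and of 1.27 in Huh7 (1.18 to 1.37), and HADHB of 1.01 and 1.17. Among the acyl-CoA dehydrogenases, electron transfer flavoprotein genes and enzymes from hydration to thiolysis that were tested, the ratio lay between 0.81, for HADH in Huh1, and 1.30, for ACADS in Huh1. ETFB was at 0.917 in Huh1 (0.877 to 0.958) and at 1.13 in Huh7 (1.02 to 1.25), and so lay on either side of 1. BDH1 had ratios of 0.882 and 0.778, the latter from 42 and 33 reads.

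Of the further pathway genes and regulators, 5 of 70 tested transcripts passed the limma test for the siRNA, or 7.14%, near the 6.39% of all genes. PPARG, a receptor of fatty acid storage, rose in both lines, from 19.4 to 27.1 RPKM in Huh1 and, in Huh7, from 18.8 to 29.7 RPKM (0.55, limma, adjusted p = 0.0188). HNF4A, a factor of hepatocyte identity, fell from 86.1 to 59.1 RPKM and from 55.4 to 38.8 RPKM (-0.52, limma, adjusted p = 0.0146). PEX19, which inserts peroxisomal membrane proteins, fell from 22.1 to 17.6 RPKM and from 23.4 to 13.0 RPKM (-0.55, limma, adjusted p = 0.0418). AACS fell from 12.4 to 9.59 RPKM and from 9.60 to 4.96 RPKM (-0.59, limma, adjusted p = 0.0416). PDK2 fell from 5.51 to 3.54 RPKM and from 2.96 to 1.72 RPKM (-0.53, limma, adjusted p = 0.0491). Within a line, PDK3 and FABP6 passed 2-fold on the log2(RPKM + 1) scale, each in 1 library against 1. PDK3 fell from 5.59 to 2.22 RPKM in Huh7 (ratio 0.397, counting interval 0.281 to 0.548). FABP6 rose from 2.84 to 6.95 RPKM in Huh1 (ratio 2.44, 1.43 to 4.15). In the other line, PDK3 had 7 and 6 reads and FABP6 4 and 1. Of the 12 hepatocyte-lineage markers, 9, HNF4A among them, fell with CDCA8-1siRNA (limma, median -0.49 over the 12), and 9 were higher in Huh1. The fetal protein AFP and the transthyretin gene TTR were higher in Huh7, 29.1-fold and 6.70-fold (limma, adjusted p = 4.01e-09 and 2.09e-06). Over all tested genes, 6.39% were called for the siRNA in either direction, 28.7% were higher in Huh1 and 42.5% higher in Huh7. Of 9 tested markers of other cell types, 1, the lysozyme LYZ, rose with CDCA8-1siRNA, 2 were higher in Huh1 and 7 were higher in Huh7. Only 3 of these markers reached 1 RPKM in every library, with 4 and 5 reaching it in the Huh1 libraries and 7 and 8 in the Huh7 libraries. The filter thus kept some of them through the line where they were high, and their counts between the lines are given as a description. The part of these markers in the differences of the fatty acid oxidation genes was not tested.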

How the data were processed

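Libraries were grouped by the cell line and siRNA of their labels, with siRNA variant, dose and time from the study's methods. The authors deposited 1 RPKM value per RefSeq transcript without naming the unit, which was deduced from values that, multiplied by length, fall on whole reads. The submitters' processing notes list CASAVA 1.8.2, TopHat2 2.0.9 and hg19. The counting tool and annotation are not given in the sources used here.

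Reads behind a value were taken from its RPKM and length, solved from the values for 32 of 37 members (tolerance 0.002 of a read) and otherwise from GENCODE release 29. They set the 95% exact binomial intervals of a ratio, which cover counting error only, and no count test was run. limma 3.58.1 (R 4.3.3) was fitted to log2(RPKM + 1) of genes at 1 RPKM or more in any library, with cell line and siRNA as factors, eBayes with trend (prior degrees of freedom 7.48) and Benjamini-Hochberg adjustment over 12148 genes. Within a line there was no test, and 2-fold on that scale was counted. The fit was tested on simulated data. Python 3.11.15 with numpy 2.4.6, pandas 2.3.3, scipy 1.17.1 and matplotlib 3.10.9 was also used.

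Every member is named. Values per library are given for members called by limma, 1.5-fold apart with CDCA8-1siRNA in either line or 2-fold apart between lines. From the further lists, genes called or 2-fold apart are named, and some genes of these lists are not reported here. Members and lists were chosen with earlier results of these data known. The libraries are not stated to come from separate cultures, and the kit does not mark strand, so overlapping genes cannot be separated. Alternatives were a pseudocount of 0.1 RPKM, no filter, a minimum of 5 RPKM, upper quartile scaling, quantile normalization, eBayes without trend, and 1 factor left out.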

Additional observations from a re-analysis of the deposited data

Results flagged for a closer look

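ETFB, the beta subunit of electron transfer flavoprotein, was the only tested member whose CDCA8-1siRNA to NCsiRNA ratio lay below 1 in Huh1 and above 1 in Huh7 with both counting intervals clear of 1. The ratio was 0.917 in Huh1 (95% counting interval 0.877 to 0.958) and 1.13 in Huh7 (1.02 to 1.25), and no member showed the reverse pattern. The response in Huh7 minus that in Huh1 was 0.297 on the log2 ratio scale (0.14 to 0.46). Each line has 1 library per siRNA, so the difference was not tested against the spread of cultures.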

How the results depend on the processing

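Between 28 and 33 members were called between Huh7 and Huh1, against 32 in the fit reported (29 over the 33 that reached 1 RPKM in both lines, a count chosen after seeing the data), and between 10 and 16 lay at least 2-fold apart with NCsiRNA, against 12. For CDCA8-1siRNA against NCsiRNA, 0 members were called in the fit reported, 1 with a minimum of 5 RPKM, 2 with upper quartile scaling and 1 with quantile normalization. The count of members at least 2-fold apart in Huh7 went from 0 to 2, PPARGC1A and PDK4, with a pseudocount of 0.1 RPKM. The siRNA calls over all genes were 776 in the fit reported, 0 without a filter on low values, 45 without the trend, 0 without the cell line factor, 1327 with upper quartile scaling and 1260 with quantile normalization, so the 0 called members without the filter or without the cell line say nothing about stability. Of 496 single-gene values under alternatives, 477 kept their direction and side of the threshold, 8 passed it newly, 7 no longer passed it and 4 changed sign. All 7 lost calls were between the lines, where 236 values kept direction and side, against 241 for the siRNA, which had no call to lose. Those that changed sign had not been called: for the siRNA, SLC27A2 went to -0.0654 with quantile normalization and EHHADH to -0.000329 with upper quartile scaling and -0.0281 with quantile normalization, and between the lines ACAA1 went to -0.0371 with upper quartile scaling. The cause was not tested. The calls lost were those of ACADS without a filter, DECR1 without the trend or the siRNA factor, and ACOX3 under 4 alternatives. Quantile normalization shifted the median line difference of all genes by -0.15, and the members' median was then -0.69. The siRNA fit reported pairs the libraries by cell line, and the fit without that factor is the unpaired one. The labels give no replicate numbers to pair by, and with 1 library for a condition none could be omitted in turn. Depth limits ACADL, SLC27A5 and PPARGC1A, which rest on fewer than 10 reads in some libraries.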
